A study of Mus musculus with 18 samples.

Results

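The cytosolic ribosomal protein genes were followed in mouse liver as 1 family. They were chosen by symbol alone: every listed gene called Rpl or Rps with a number (and an optional letter or like-suffix), the stalk genes Rplp0 to Rplp2, and Rpsa, with symbols marked as pseudogenes left out. This gave 83 of 18946 listed genes, 50 of the large and 33 of the small subunit. All 83 reached 0.5 TPM in at least 8 libraries and were tested. TPM is reads per base of gene length, scaled to the same total in each library.

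The livers came from male C57BL/6J mice, an inbred laboratory strain, of 2 ages: 10 Old mice, labelled 19.76 months, and 8 Young mice, labelled 6.18 months. After an overnight fast, all mice had a hyperinsulinemic-euglycemic clamp, an infusion of insulin together with enough glucose to hold blood glucose steady, and no liver without insulin was compared. RNA was extracted with the AllPrep kit from 5 Old and 3 Young livers and with the RNeasy kit from 5 Old and 5 Young livers, and ribosomal RNA was depleted before library preparation. Each library is a separate mouse. The hepatocyte markers were high in every library, with Alb, serum albumin, at 56100 to 112000 scaled TPM and Hnf4a, a hepatocyte transcription factor, at 259 to 490 scaled TPM.

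Each cytosolic ribosome is built from a small subunit, which reads the mRNA, and a large subunit, which joins the amino acids. Nearly every ribosomal protein is made for 1 place in the particle, so the proteins are needed in equal amounts. Most of these mRNAs begin with a run of C and T bases, the terminal oligopyrimidine (TOP) tract, through which the insulin-responsive kinase mTORC1 controls their translation, largely without changing mRNA amount.

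Part of the genes carried a long C/T run near the annotated start: 27 of 52 with a single start had at least 8 bases. In others the longest run was short, such as 3 bases in Rpl41 and 4 in Rpl10 between 25 bases before and 20 bases after the start. Only genes with runs of at least 9 bases are shown. They come from the RefSeq promoters (build GRCm38.p6), from 60 bases before to 20 bases after the annotated start, 5′ to 3′, with the longest C/T run near the start in capitals. The first 5 are genes with long runs or close to the family's course over livers, and the last 3 are genes described below for a low level, a paralog or a kit difference. Rpl7a lies at chr2:26910747-26910826 (+), Rpl27a at chr7:109519135-109519214 (+), Rpl15 at chr14:18270967-18271046 (-), Rps18 at chr17:33955646-33955725 (-), Rps6 at chr4:86857348-86857427 (-), Rpl28 at chr7:4792905-4792984 (+), Rpl22l1 at chr3:28805448-28805527 (+) and Rps26 at chr10:128626487-128626566 (-).
Rpl7a: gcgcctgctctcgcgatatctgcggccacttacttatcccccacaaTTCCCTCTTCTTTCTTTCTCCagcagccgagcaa
Rpl27a: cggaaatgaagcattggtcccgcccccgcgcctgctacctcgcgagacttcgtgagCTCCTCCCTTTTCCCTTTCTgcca
Rpl15: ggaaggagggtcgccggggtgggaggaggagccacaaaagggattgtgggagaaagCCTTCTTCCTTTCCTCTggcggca
Rps18: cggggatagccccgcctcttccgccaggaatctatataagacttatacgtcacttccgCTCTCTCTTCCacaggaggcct
Rps6: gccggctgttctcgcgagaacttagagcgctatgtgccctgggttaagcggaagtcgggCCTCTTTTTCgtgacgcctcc
Rpl28: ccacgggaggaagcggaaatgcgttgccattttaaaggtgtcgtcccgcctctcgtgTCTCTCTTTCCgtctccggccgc
Rpl22l1: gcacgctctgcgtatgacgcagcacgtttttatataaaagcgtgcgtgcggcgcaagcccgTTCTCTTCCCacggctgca
Rps26: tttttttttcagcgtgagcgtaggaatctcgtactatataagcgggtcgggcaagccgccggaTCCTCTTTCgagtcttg

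RefSeq gave a promoter for 61 of the 83 genes, and 52 of these had a single annotated start. Among those 52, 27 (51.9%) held a C/T run of at least 8 bases within 25 bases of the start, against 19.2% of 22862 single-start promoters of all genes. The median longest run was 9 bases in the family and 5 bases over all promoters. Over the 300-base promoter window on both strands, CCGGAAG, the core of sites bound by ETS factors, was present in 40.4% of the family and 9.1% of all promoters. GCCATNTT, the core of YY1 sites, was present in 17.3% of the family and 6.4% of all promoters. TATAAA was present in 13.5% of the family and 14.8% of all promoters. These are matches of letters in a window, not sites shown to be bound. Genes without a matched promoter included Rpl7, Rps20, Rpl21, Rpl32, Rps4l, Rplp1, Rpl29, Rpl6l, Rps27a, Rpl23a, Rps29, Rpl30, Rpl8, Rpl3, Rpl36, Rps14 and Rpl17.

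The family was abundant in every liver, though it was not ranked against other groups of mRNA. Together the 83 genes held 2.80% ± 0.227 of the listed TPM in Old livers (SD, n = 10; range 2.51% to 3.25%) and 2.79% ± 0.309 in Young livers (SD, n = 8; range 2.47% to 3.42%). The 2 means lay closer together than 1 SD of either age. By reads, which are not divided by gene length, the family held 1.032% ± 0.103 in Old and 1.055% ± 0.154 in Young livers (SD). The median gene of the family had a mean of 316 TPM over the 18 libraries, against 3.25 TPM over all listed genes, and 72 members were among the 1000 genes of highest mean TPM. Whole reads could be recovered from the TPM values, and the libraries held 85790735 to 127487820 reads over the listed genes.

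The highest member was Rpl10, which completes the large subunit late in its assembly, with a mean of 1042 TPM. In scaled TPM, Rpl10 lay between 819 and 1285 with a median of 1007 in Old livers, and between 939 and 1525 with a median of 1009 in Young livers. Rps2, of the mRNA entry side of the small subunit, followed with a mean of 776 TPM, Rps26 with 736 TPM, Rps18 with 676 TPM and Rpl7 with 667 TPM. All 5 lay at similar levels in both ages, with ranges that overlapped. Rpl10 and Rps2 share 100-base stretches with transcripts of 10 and 36 other genes, over 91.6% and 64.7% of their transcripts, so their levels depend on how shared reads were counted.

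At the low end, Rpl28, of the large subunit, had a mean of only 1.11 TPM, from 13 to 39 reads per library. Of its transcript, 46.8% is shared with 4 other genes and 183 bases overlap another gene's exon, so its level is uncertain. Rpl32l, listed as a like-gene of Rpl32, had 1.90 TPM and Rpl6l, a like-gene of Rpl6, had 1.96 TPM. Next came Rps4l, a paralog of Rps4x, with 27.3 TPM, and Rps15a, of the small subunit, with 27.8 TPM. The reads of Rps15a were not scarce: it had a mean of 6547 reads per library, but its TPM was divided by a length of 5136 bases, where its principal GENCODE transcript has 640 bases. The 7 members counted over at least 2000 bases had a median of 63.5 TPM and 9942 reads, against 343 TPM and 12400 reads for the other 76. A ribosomal protein's place in the order of TPM therefore followed the length counted as well as the reads, while its ratio between livers does not involve the length. In all, 76 members shared a 100-base stretch with another gene's transcript, 33 of them over more than 50% of the transcript, and 38 overlapped an exon of another gene.

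**Figure D1:**
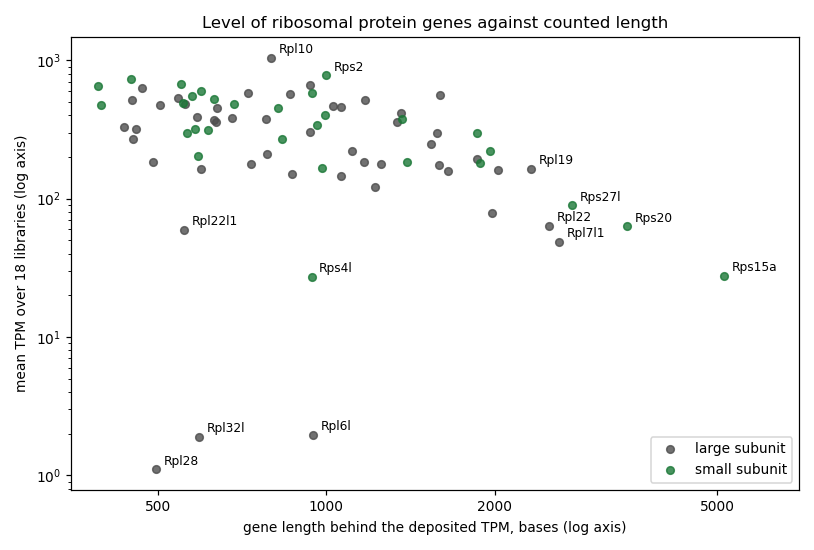
Mean TPM over 18 libraries (log axis) against the gene length behind the deposited TPM in bases (log axis), 1 point for each of 78 ribosomal protein genes, grey for the large and green for the small subunit. The 7 genes counted over at least 2000 bases lie between 27.8 and 165 TPM, and Rpl28, Rpl32l and Rpl6l lie near 1 to 2 TPM at short lengths.

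Single livers stood apart in the level of the whole family, with differences larger than that between the age means. After scaling, the median member of Young replicate 1 stood 0.46 above its own mean over libraries on the log2 scale, 1.38-fold, with 81 of 83 members above their mean. In Old replicate 5 the median deviation was 0.29 with 80 members above their mean, and in Old replicate 9 it was -0.23 with 5 above. In the other 15 libraries the median deviation lay between -0.12 and 0.09. Without scaling, Young replicate 1 still stood highest, at 0.31, whereas Old replicate 5, at 0.16, lay below Old replicate 14, at 0.21, and Old replicate 9, at -0.12, was level with Old replicate 7 and above Young replicate 13, at -0.17. The shift in Young replicate 1 was shared by the mitochondrial ribosomal protein genes, with a median deviation of 0.34, and by the translation factors with a TOP start, with 0.36. Of the 8 cell type marker lists, Young replicate 1 had the highest summed level of the Young livers for 2, endothelial cells (128 scaled TPM within 92.2 to 128) and stellate cells (217 within 145 to 217), and the lowest for cholangiocytes (6.88 within 6.88 to 11.1). It lay inside the Young range for the other 5, among them hepatocytes (124900 scaled TPM within 95090 to 134800) and B and plasma cells (10.5 within 6.06 to 12.4). Each list level, here and below, is a plain sum. Alb, at 56100 to 112000 scaled TPM over all libraries, was the largest part of the hepatocyte sum. The part of these lists in the shift was not tested.

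**Figure D2:**
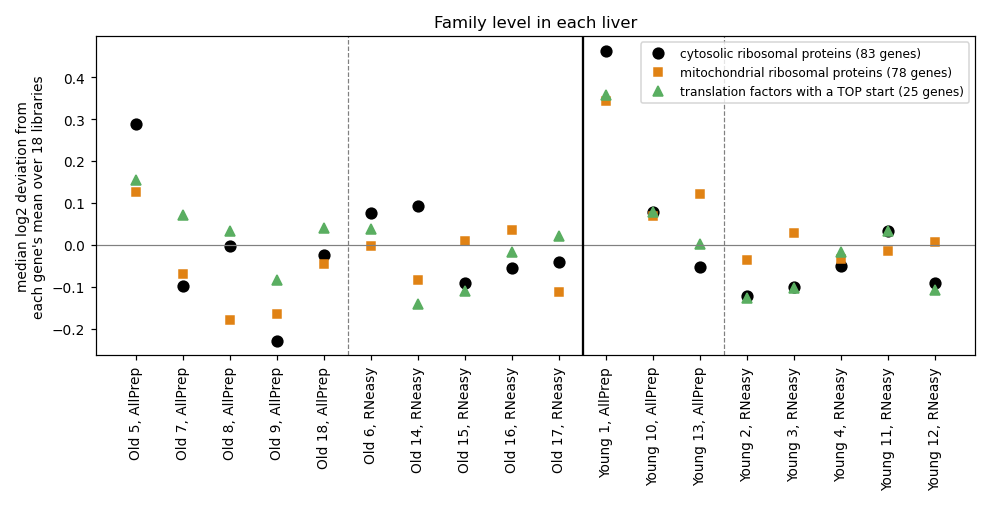
Median log2 deviation from each gene's mean over 18 libraries (y axis) in each liver, for the 83 cytosolic ribosomal protein genes (black), 78 mitochondrial ribosomal protein genes (orange) and 25 translation factors with a TOP start (green). Young replicate 1 stands highest for all 3 sets, at 0.46, 0.34 and 0.36.

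**Figure D3:**
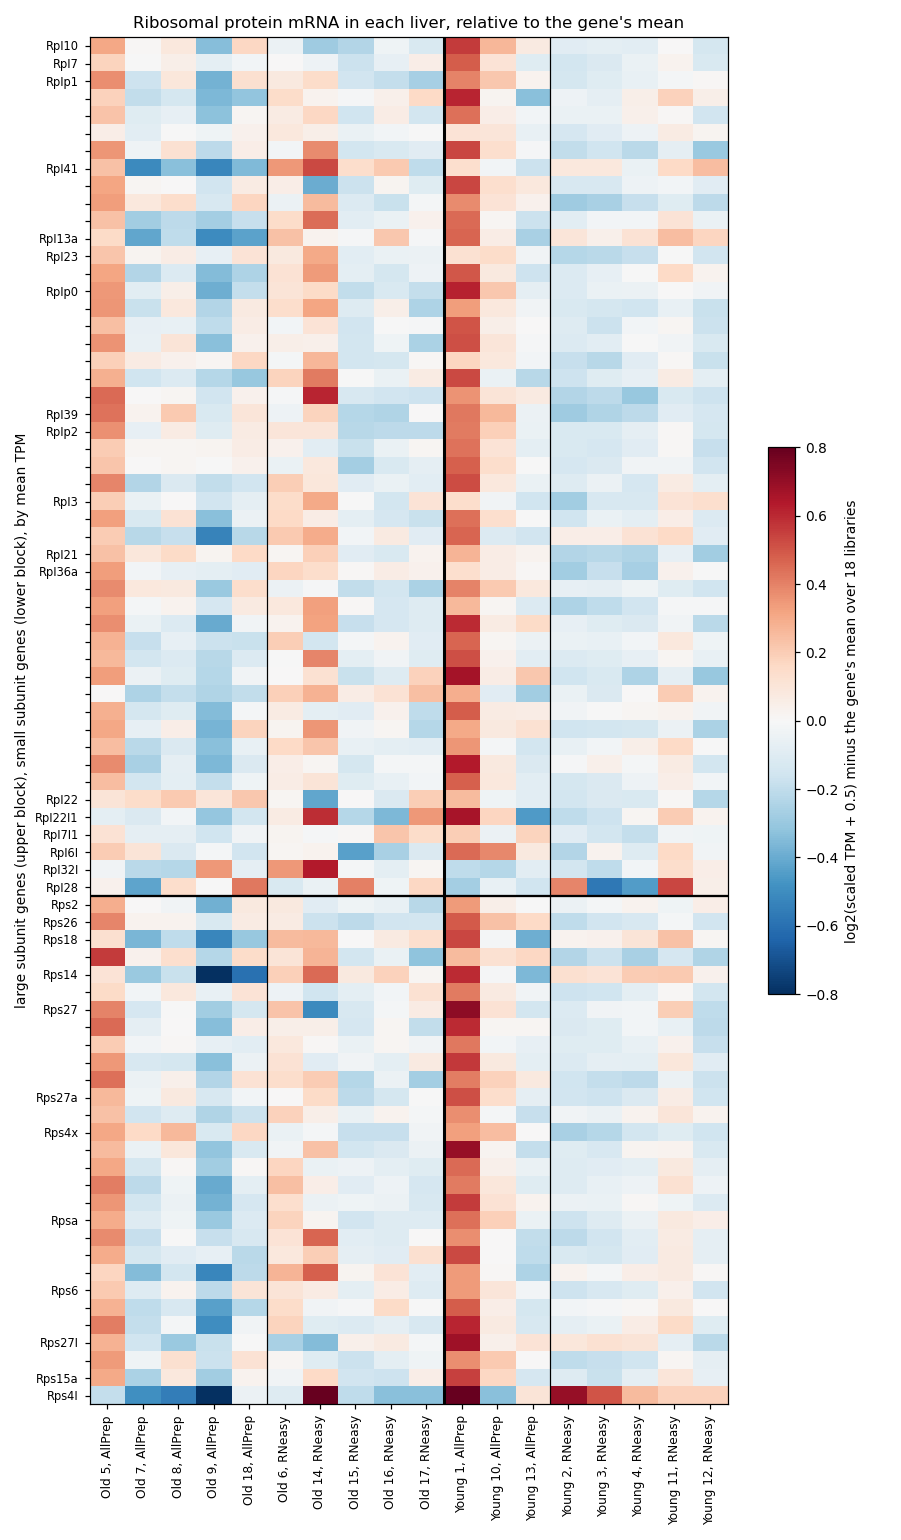
Log2 scaled TPM of 78 ribosomal protein genes (rows, by mean TPM within subunit, some labelled) in each liver (columns), minus the gene's mean over 18 libraries. Columns of 1 colour run through nearly all rows in Young replicate 1 and Old replicate 5, whereas Rps4l, Rpl28 and Rpl32l break the pattern.

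The first question was whether the family differed between old and young livers under insulin. No member passed the test for age. Of 83 members, 0 were higher and 0 were lower in Old livers at an adjusted p under 0.05 (limma, Benjamini-Hochberg over 13895 genes), against 4.91% of all tested genes called, 2.44% higher and 2.47% lower. At an unadjusted p under 0.05, 2 members were counted, against 23.4% of all tested genes, and limma-voom on the recovered reads also called 0. The median log2 difference, Old minus Young, was -0.05 over the members and 0.00 over all tested genes. In 58 members the difference was negative and in 25 positive, and 27 of the 33 small subunit genes were negative. In these whole livers, fewer cells of a type and less RNA per cell cannot be told apart.

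The differences were small as well as uncalled. For 82 of 83 members the log2 difference lay between -0.25 and 0.25, and for 82 the 95% interval lay within 1.5-fold either way. The exception to both was Rps4l. The ranges of the 2 ages overlapped for all 83 members. Overlap was not counted over all tested genes, so this does not set the family apart from other genes. The sign of the median changed when 1 mouse was left out: without Young replicate 1 it was 0.02, with 32 members negative. Without scaling it was 0.01 with 40 members negative, where the median of all genes was 0.06. Every Old mouse was heavier at the clamp (35.1 to 55 in the labels' unit) than every Young mouse (26.6 to 34.8). With body weight as a term the median difference was 0.28, with 82 members positive. Of these, 42 had an unadjusted p under 0.05 (limma) but 0 were called. In that setting only 3 of all tested genes were called higher and 0 lower, so the 0 called members say little. The unadjusted share of all genes in that setting is not given here.

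**Figure D4:**
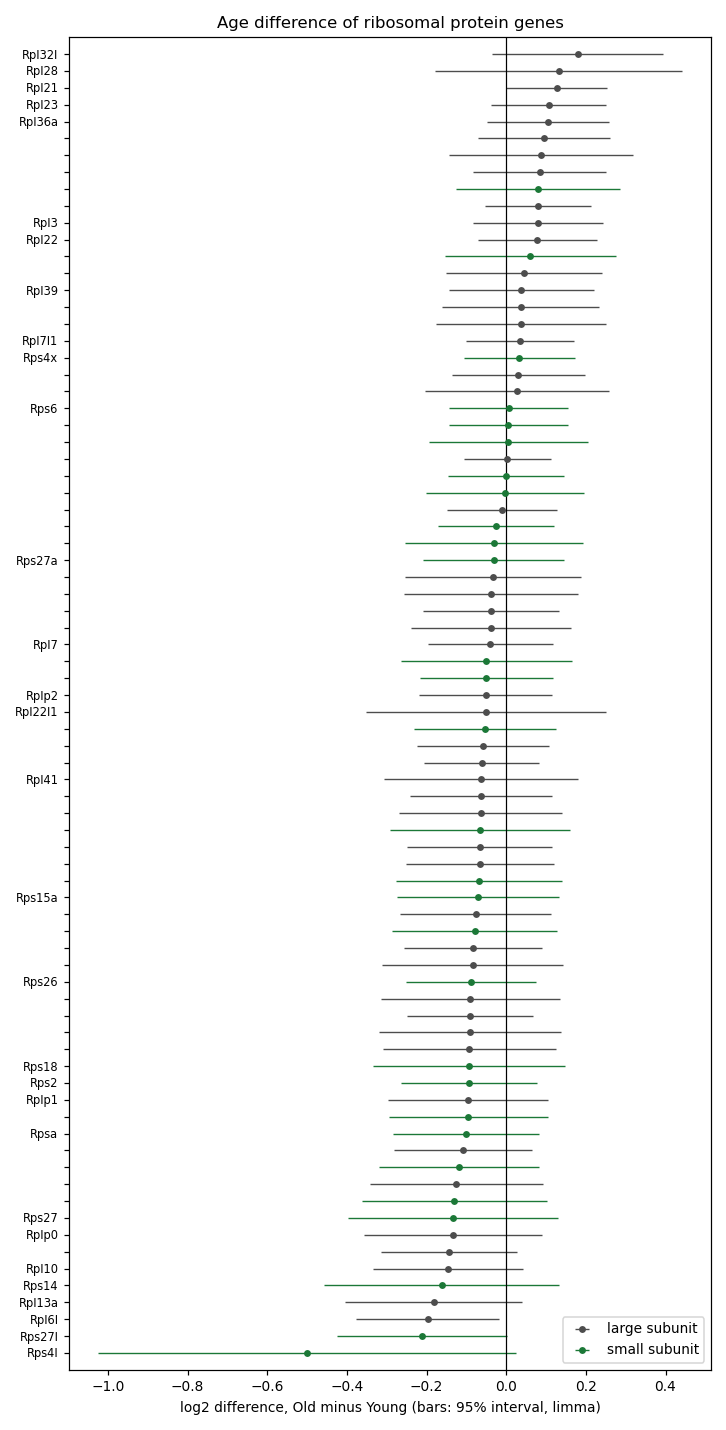
The log2 difference, Old minus Young, of 78 ribosomal protein genes (x axis) with its 95% interval from limma, ordered by size with some labelled, grey for the large and green for the small subunit. The points run between -0.50 for Rps4l and 0.18 for Rpl32l, and most intervals cross 0.

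The widest difference belonged to Rps4l, a paralog of the small subunit protein Rps4x. Rps4l lay between 7.90 and 64.9 scaled TPM with a median of 20.4 in Old livers, and between 19.4 and 45.7 scaled TPM with a median of 28.8 in Young livers. Apart from Old replicate 14, at 64.9, no Old liver exceeded 23.8 scaled TPM, and 7 of the 8 Young livers were above that level, so the lone high Old liver stretched the range over all Young values. The log2 difference was -0.50 ± 0.25 (SE; adjusted p = 0.237, limma). Without Old replicate 14 it was -0.69 with an adjusted p of 0.038, the only setting run that called any member; without Young replicate 1 it was -0.35 with an adjusted p of 0.433. Old replicate 14 also had the highest summed levels among the Old livers for 4 of the 8 cell type marker lists: hepatocyte (142300 scaled TPM within 99140 to 142300), endothelial (138 within 82.2 to 138), cholangiocyte (20.5 within 8.91 to 20.5) and B and plasma cell (44.9 within 9.88 to 44.9). Their part in the Rps4l value was not tested. Rps4l has no Ensembl identifier in the table, and 2.0% of its transcript is shared with 1 other gene.

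Rps27l and Rpl6l were also among the members with the most negative differences, and neither was called. Rps27l, a paralog of Rps27 known as a p53 target, lay between 69.4 and 108 scaled TPM with a median of 83.3 in Old livers, and between 76.3 and 142 with a median of 94.6 in Young livers (log2 difference -0.21 ± 0.10 SE, adjusted p = 0.22, limma). Rpl6l had medians of 1.84 and 2.04 scaled TPM in Old and Young livers (log2 difference -0.20 ± 0.09 SE, adjusted p = 0.173), and Rpl13a of 455 and 493 scaled TPM. For Rps27l, the highest Young value was that of Young replicate 1, at 142 against 96.4 scaled TPM in the next Young liver. For Rpl6l, Young replicate 1 was also highest, at 2.86 scaled TPM, but Young replicate 10 was close, at 2.69.

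On the other side, Rpl32l, Rpl28, Rpl21, Rpl23 and Rpl36a had the most positive differences, again with none called. Rpl21, of the large subunit, lay between 177 and 227 scaled TPM with a median of 201 in Old livers, and between 159 and 233 with a median of 175 in Young livers. All 10 Old livers were above the Young median, yet the highest single value was Young replicate 1 (log2 difference 0.13 ± 0.06 SE, adjusted p = 0.211, limma). Rpl23, also of the large subunit, likewise had 10 of 10 Old livers above the Young median, at medians of 473 scaled TPM in Old and 433 in Young livers (log2 difference 0.11 ± 0.07 SE, adjusted p = 0.362). Rpl32l and Rpl28 rest on means of 51.5 and 24.9 reads per library.

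Members with known special roles lay close to the family. Rps6, the small subunit protein phosphorylated by S6 kinase downstream of mTORC1, lay between 158 and 211 scaled TPM in Old livers, with a median of 189, and between 163 and 231 in Young livers, with a median of 176 (log2 difference 0.01 ± 0.07 SE, adjusted p = 0.971, limma). The stalk genes, whose proteins recruit elongation factors, had log2 differences of -0.13 for Rplp0, -0.10 for Rplp1 and -0.05 for Rplp2. Rpsa, known also as the laminin receptor precursor, had a difference of -0.10, and Rps27a, which is made as a fusion with ubiquitin, of -0.03. The values of these 5 overlapped between the ages, and their smallest adjusted p was 0.467.

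For 4 pairs, the share of the summed scaled TPM taken by the like-named paralog was compared between ages. Rpl22l1 took 46.8% ± 7.10 of the Rpl22 pair in Old livers (SD, n = 10) and 49.6% ± 4.17 in Young livers (SD, n = 8), with a two-sided exact permutation p of 0.348. That near-even share is per length: Rpl22 had a mean of 7224 reads over 2497 bases and Rpl22l1 1538 reads over 556 bases. Rps27l took 13.8% ± 1.71 of its pair with Rps27 in Old livers and 14.5% ± 1.46 in Young livers (exact p = 0.419). That share is also per length: Rps27l had a mean of 11220 reads over 2748 bases and Rps27 14390 reads over 575 bases. Rps4l took 5.67% ± 3.42 of its pair with Rps4x in Old livers and 7.96% ± 2.16 in Young livers (exact p = 0.121). Rpl7l1 took 6.93% ± 0.598 of its pair with Rpl7 in Old livers and 6.69% ± 0.767 in Young livers (exact p = 0.455). Here too the lengths differed, with a mean of 5771 reads over 2606 bases for Rpl7l1 and 28480 reads over 934 bases for Rpl7. The adjusted p over the 4 pairs was 0.455 for each. These tests pooled the kits. Within AllPrep, Rps4l took 3.89% in Old and 6.49% in Young livers (exact p = 0.0536), and within RNeasy 7.46% in Old and 8.84% in Young livers (exact p = 0.532). Rpl22l1 took 43.05% and 49.46% within AllPrep (exact p = 0.0893), and 50.48% and 49.71% within RNeasy (exact p = 0.905). Rpl7l1 took 6.50% and 6.62% within AllPrep (exact p = 0.857), and 7.37% and 6.73% within RNeasy (exact p = 0.0714). For Rps27l the exact p was 0.5 within AllPrep and 0.643 within RNeasy.

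**Figure D5:**
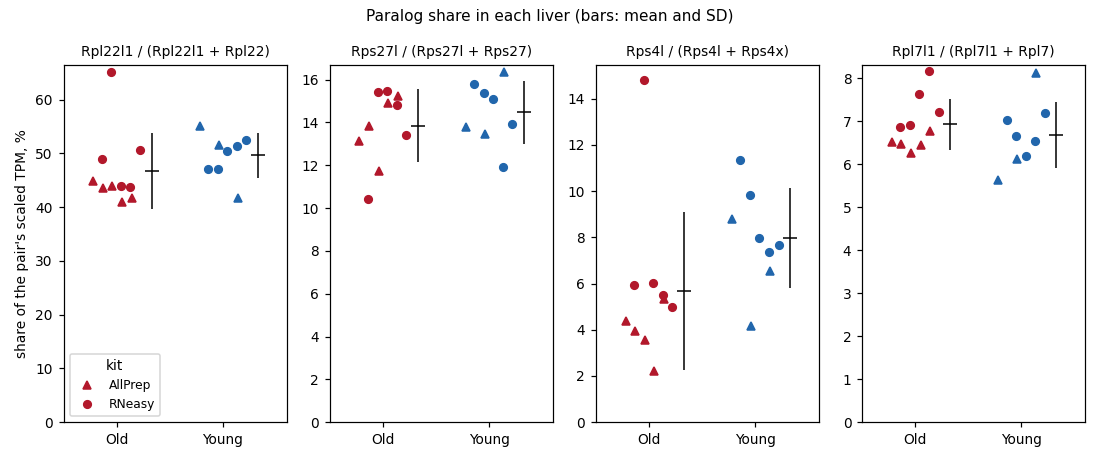
Share of the pair's scaled TPM taken by the like-named paralog, in percent, in each Old (red) and Young (blue) liver, with triangles for AllPrep, circles for RNeasy, and bars for mean and SD. Both ages overlap in all 4 pairs, and 1 Old RNeasy liver stands high for Rpl22l1 and Rps4l.

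The members moved together from liver to liver. With age and kit taken out, the median Pearson r over the 3403 pairs of members was 0.77, against 0.46 over pairs of mitochondrial ribosomal protein genes and 0.14 over pairs of the 1557 tested genes with a mean level at or above that of the members' lowest 10%. Leaving out Old replicate 14 and Young replicate 1 gave 0.75 for the family, with residuals from the fit over all 18 libraries. Old replicates 5 and 9, which also stood apart for the family, were kept. This value therefore cannot show whether the 0.77 rests on a few livers. These values describe the same 18 libraries, which the pairs share, and scaling acts on all genes of a library at once. Against the mean of the other members, the median r was 0.90 and 61 members exceeded 0.8. The closest were Rpl15, of the large subunit, at 0.98, and Rps18, of the small subunit, at 0.97. The loosest were Rpl28 at -0.06, Rpl22 at 0.11 and Rpl32l at 0.12, followed by Rps27l at 0.52 and Rpl7l1 at 0.53.

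The spread of single members between livers was close to that of other genes. The median residual SD was 0.19 on the log2 scale over the members and 0.20 over all tested genes. Rpl4, of the large subunit, varied least, with 1.18-fold between its highest and lowest library, and the median member 1.70-fold. Rps14, of the small subunit, spanned 2.75-fold and Rps4l 8.21-fold. Rps14 had its lowest value, 322 scaled TPM, in Old replicate 9 and its highest, 886 scaled TPM, in Young replicate 1.

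The extraction kit was compared in the same fit, because it crosses age. With AllPrep, 10 of 83 members were higher and 1 was lower than with RNeasy (limma, adjusted p under 0.05), where 18.3% of all tested genes were called, 5.65% higher and 12.6% lower. By direction and with this scaling, 12.0% of members were called higher, above the 5.65% of all genes, and 1.2% lower, below the 12.6%. The mitochondrial ribosomal protein genes shared this direction, with 12 of 78 higher and 1 lower. So did the translation factors with a TOP start, with 6 of 25 higher and 0 lower. The RNA polymerase I genes (0 of 11 higher, 2 lower) and small nucleolar RNA host genes (0 of 10 higher, 3 lower) went the other way. In either direction, 24 members had an unadjusted p under 0.05, against 30.4% of all tested genes. Rps4x lay between 347 and 473 scaled TPM with a median of 436 with AllPrep, and between 315 and 373 with a median of 339 with RNeasy (log2 difference 0.30 ± 0.07 SE, adjusted p = 0.0035). Rps26, a protein of the mRNA exit site, had medians of 792 scaled TPM with AllPrep and 659 with RNeasy (log2 difference 0.30 ± 0.08 SE, adjusted p = 0.0116). Other members called higher included Rpl39, Rpl10, Rpl29, Rpl23a, Rps20, Rpl21 and Rpl6, with log2 differences of 0.21 to 0.28. Rpl41, which encodes a very short basic peptide, was the member called lower, with medians of 426 scaled TPM with AllPrep and 562 with RNeasy (log2 difference -0.34 ± 0.12 SE, adjusted p = 0.0494).

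These kit directions depended on the scaling and on single livers. With median-of-ratios scaling 19 members were higher and 0 lower, where the median of all genes itself moved from 0.01 to 0.07. Without scaling 1 member was higher and 7 lower, where the median of all genes moved to -0.11. Without Young replicate 1, 4 were higher and 7 lower, and without Old replicate 14, 18 were higher and 0 lower. The shares of all genes called under these settings are not given here. The counts therefore show only how far the members' result moved.

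Whether the age difference depended on the kit was tested with an interaction term. No member was called (0 of 83; limma, 0.0% of all tested genes), and 3 had an unadjusted p under 0.05, namely Rpl7l1, Rpl35a and Rpl5, against 4.22% of all tested genes. The estimate was negative for 81 of 83 members, with a median of -0.24, against 45.7% of all tested genes, with a median of 0.02. The mitochondrial ribosomal protein genes shared this direction, with 75 of 78 negative and a median of -0.20. Within AllPrep alone the median age difference of the members was -0.20, and within RNeasy alone it was 0.05. Young replicate 1 is 1 of the 3 Young AllPrep livers, and without it the median interaction of the members was -0.10.

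The labels give the percent by which insulin suppressed glucose production in each mouse, between 25.4 and 68.4 in Old and between 68.4 and 92 in Young mice. The slope of each member on this value, within age and kit, was called for 0 of 83 members (limma, 0.0% of all tested genes). At an unadjusted p under 0.05, 3 members were counted, Rpl41, Rpl38 and Rpl31, all with a positive slope, against 9.12% of all tested genes. The slope was positive for 79 of 83 members, with a median of 0.04 on the log2 scale per 10% of suppression. Over all tested genes 52.8% of slopes were negative, with a median of 0.00. The mitochondrial ribosomal protein genes shared the members' direction, with 65 of 78 positive, a median of 0.04 and 29.5% at an unadjusted p under 0.05 (limma). Without Old replicate 5 the median slope of the cytosolic members was 0.01.

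The genes around the ribosomal proteins in the same pathway were also read off the age fit. Over all tested genes 2.44% were called higher and 2.47% lower, and a single gene called in a list says nothing of the list. Of 25 translation factors and other genes with a TOP start, 0 were higher and 0 lower in Old livers, with a median log2 difference of -0.01. Of 34 assembly genes, 0 were higher and 1 lower: Nmd3, the export adaptor of the large subunit, averaged 23.7 ± 2.89 scaled TPM in Old and 29.3 ± 3.81 in Young livers (log2 difference -0.31, adjusted p = 0.0368, limma). Of 11 tested RNA polymerase I genes, 1 was higher and 0 lower: Taf1c, of the promoter selectivity factor, averaged 1.07 ± 0.18 scaled TPM in Old and 0.735 ± 0.0837 in Young livers (log2 difference 0.35, adjusted p = 0.0103). Of 20 genes of mTORC1 and of TOP mRNA control, 0 were higher and 1 lower: Myc, a transcription factor that drives ribosome synthesis, averaged 6.04 ± 3.12 scaled TPM in Old and 23.9 ± 13.1 in Young livers (log2 difference -1.78, adjusted p = 0.00345). None of the 10 small nucleolar RNA host genes and none of the 13 tested quality control genes were called.

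The mitochondrial ribosomal protein genes were the closest comparison. Of 78, 0 were higher and 5 lower in Old livers, against 2.47% of all tested genes called lower. At an unadjusted p under 0.05 there were 25.6% of the list and 23.4% of all genes. A negative difference was found for 67 of 78, against 49.1% of all genes, and the median was -0.11, where the cytosolic family had 0 called and a median of -0.05. Mrps18b averaged 27.1 ± 4.58 scaled TPM in Old and 35.1 ± 4.08 in Young livers (log2 difference -0.39, adjusted p = 0.0271, limma). The difference between the 2 families was not tested.

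Among the pathway genes, those whose course over livers was most like the mean of the family were Rack1, a protein of the small subunit head, with r = 0.97, Eif3h, with r = 0.92, and Eef1g, with r = 0.91. The most opposite were Larp1b, a relative of the TOP-binding protein Larp1, at -0.81, Map3k20, a sensor of stalled ribosomes, at -0.79, and Pdcd4, an inhibitor of translation initiation, at -0.78. The genes named are extremes, and their lists ran both ways. In the list with a TOP start, which holds Rack1, Eif3h and Eef1g, the median r was 0.48 (-0.63 to 0.97). In the mTORC1 and TOP control list, which holds Larp1b and Pdcd4, it was -0.43 (-0.81 to 0.62). In the quality control list, which holds Map3k20, it was -0.37 (-0.79 to 0.37). Each r is over the same 18 libraries with age and kit taken out and is a description.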

How the data were processed

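Liver RNA of 10 Old and 8 Young mice was sequenced. The deposited table holds TPM per gene and library, made by the authors. STAR 2.7.9a, Subread and featureCounts and the builds GRCm39 and mm10 are named per the submitters' processing notes, with no role for each build. Neither the annotation nor the strand setting is given in the sources used here. Paralogs, overlapping genes and genes with near-identical copies are therefore uncertain.

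Whole reads were recovered from the ratios of TPM between libraries for 18946 of 18946 genes (at most 2e-08 from a whole number), together with the gene length behind each TPM. The libraries held 85790735 to 127487820 reads. No 2 libraries of an age agreed within sampling noise: chi-square over its degrees of freedom was at least 75.1 in 45 Old pairs and at least 38.5 in 28 Young pairs.

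Scaled TPM is the deposited TPM divided by a trimmed-mean factor per library (30% of log ratios and 5% of levels trimmed at each end). The fit used limma 3.58.1 (R 4.3.3) with age, kit and a variance trend, on log2 of scaled TPM plus 0.5, for the 13895 genes that reached 0.5 TPM in 8 or more libraries, with Benjamini-Hochberg adjustment. Fold changes on this scale understate changes of low genes. The model was tested on simulated data. Shares of paralog pairs were compared with exact permutation tests over 43758 regroupings, which did not take the kit into account. Within each kit the tests were over 56 regroupings for AllPrep and 252 for RNeasy. Transcript lengths and shared 100-base stretches came from GENCODE vM21 and promoters from RefSeq, both on GRCm38, which need not be the authors' build. Python 3.11.15, numpy 2.4.6, pandas 2.3.3 and matplotlib 3.10.9 were used.

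The members and gene lists were chosen with earlier results of these data known. Named members were those called for age, the 5 largest and 5 smallest age differences, the 5 highest and 5 lowest levels, paralogs with their partners, the stalk genes, Rpsa, Rps6, Rps27a, the 5 largest kit differences, and called pathway genes (up to 4 per list). Members called for kit or at an unadjusted p under 0.05, those with the widest or narrowest spread, and those nearest to or farthest from the family mean were named after their values were seen. Some members are counted in the family but not reported singly here. Alternatives were the kit term, each kit alone, scaling, filter, pseudocount, library weights, body weight, limma-voom on recovered reads, and each library left out.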

Additional observations from a re-analysis of the deposited data

Results flagged for a closer look

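In each age, the highest or lowest liver was compared with the rest for every member, by its gap to the nearest liver relative to the whole range (Dixon's 95% value). Chance alone marks about 1 in 20 groups. Of 168 groups, 57 had a liver standing apart, and it was Young replicate 1 in 49, Old replicate 5 in 7 and Old replicate 14 in 1. The groups share these libraries and are not independent.

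Among the named members, Young replicate 1 stood above the next Young liver for Rpl7 (931.3 against 718.0 scaled TPM), Rps27 (888.4 against 621.5), Rplp0 (632.1 against 479.1) and Rps27a (644.4 against 498.4). It also stood apart for Rps2 (981.4 against 802.4 scaled TPM), Rps27l (142.1 against 96.37), Rpl22 (75.37 against 63.51) and Rps15a (40.63 against 31.03). Old replicate 5 stood above the next Old liver for Rps26 (963.3 against 766.3 scaled TPM) and Rplp2 (406.9 against 337.8). Old replicate 14 stood apart for Rps4l, at 64.87 scaled TPM against 23.82 in the next Old liver.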

How the results depend on the processing

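No paired analysis was possible because no replicate number occurs in both ages. The count of members called for age was 0 higher under every setting run, and 0 lower except without Old replicate 14, where Rps4l was called. The median age difference of the members lay between -0.08 and 0.02 when single libraries were left out was 0.01 without scaling, and was 0.28 with body weight as a term. Over all genes, 339 were higher and 343 lower in Old livers. Leaving out single libraries gave 176 to 500 higher and 184 to 464 lower. The AllPrep libraries alone gave 103 and 59, the RNeasy libraries alone 8 and 7, and RNeasy without Old replicate 14, an alternative chosen after seeing the data, 41 and 29. Library quality weights gave 704 and 697, and body weight as a term 3 and 0. Without scaling 341 were higher and 188 lower, 64.5% higher against 49.7% with scaling. For the kit, the members called ran between 4 and 18 higher and between 0 and 7 lower over the left-out libraries. Median-of-ratios scaling gave 19 higher and 0 lower, no scaling 1 and 7, and leaving out both Old replicate 14 and Young replicate 1, also chosen after seeing the data, 6 lower. These kit counts stand without the shares of all genes called under the same settings. No member was called for the interaction or the slope when any library was left out. The causes of these shifts were not tested. Depth limits Rpl28, Rpl32l and Rpl6l most.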
